A study of Homo sapiens with 5 samples.

Results

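The poly(C)-binding protein family is made up of HNRNPK, PCBP1, PCBP2, PCBP3 and PCBP4, and this section follows the 5 mRNAs that encode it. They were taken by gene symbol from the 56632 genes listed in each table, and the family was picked for study with earlier results of these data known. All 5 were listed, and 4 of them, all but PCBP3, were among the 11764 genes whose FPKM averaged 1 or more over the libraries. FPKM counts fragments per kilobase of transcript and scales them to the total of the library, so that levels of different genes in a library can be set side by side.

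The proteins of this family carry KH domains, folds that hold single-stranded RNA, and they prefer runs of cytosine. hnRNPK shuttles between nucleus and cytoplasm and acts in splicing, mRNA stability and translation. PCBP1 and PCBP2, also called hnRNP E1 and E2, stabilise mRNAs such as that of alpha-globin and carry iron to client proteins inside the cell. PCBP3 and PCBP4 are less abundant relatives, and PCBP4 is known as a p53 target. Because these proteins bind RNA, including in some cases transcripts of RNA-binding proteins, their own mRNAs can be looked up in an immunoprecipitation of one of them.

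RNA immunoprecipitation followed by sequencing (RIPseq) uses an antibody to take 1 protein from lysed cells and sequences the RNA recovered along with it. All 5 libraries came from MCF10A, an established, non-tumorigenic breast epithelial cell line of human origin, without treatment. MCF10A cells expressing FLAG tagged CBFB gave 1 input and 1 RIP with a FLAG antibody. Parental MCF10A gave 1 input and 2 repeats of a RIP with an hnRNPK antibody. CBFB is the partner of the transcription factor RUNX1. The design asks which transcripts accompany CBFB and whether hnRNPK holds them too. The labels do not say whether the FLAG-CBFB line is 1 clone, or whether its own CBFB gene was intact. For protein pulldowns the study made stable FLAG-CBFB lines in CBFB knockout MCF10A cells. Whether such a line was used here is not stated. The inputs had no antibody, and no mock immunoprecipitation was analysed here. The labels do not say whether the repeats came from separate cultures, so their spread may be technical.

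The libraries held 69786576 to 106855647 estimated counts, of which the 37 mitochondrial genes took 4.27% and 11.2% in the inputs and 62.2% to 86.6% in the RIPs. An FPKM of 1 was reached by 5960 and 6338 genes with the hnRNPK antibody and by 12764 and 12941 genes without any. The epithelial markers KRT5, KRT17, ITGB4, LAMB3, CDH1 and TP63 lay between 19.7 and 1970 FPKM in the inputs. KRT14 was at 6.78 in the FLAG-CBFB cell input and 1.81 in the parental input. In the same order the luminal receptor gene ESR1 was at 0.71 and 0.67, and the fibroblast markers COL1A1 at 1.08 and 1.77 and PDGFRB at 0.07 and 0.04. PTPRC, a blood cell marker, was at most 0.01.

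The C-rich stretches of the transcripts are shown first, since C-rich RNA is what these proteins bind. For each gene the longest transcript listed in the tables was read from GENCODE 29, and the 30 bases with the most C were taken. The C are in capitals. The tables were made on hg19 and hold no coordinates, so positions are those of GENCODE 29 on GRCh38. The windows of the 5 family transcripts, read 5′ to 3′ on the transcript strand, were as follows.
HNRNPK: CCCtCgtCgaggaCCaCCtCCCCCtCCtCC
PCBP1: CCCtCgCCCaCCCgCCCgCCCgCCgCtCCC
PCBP2: gCCCCtCCCaCCgCCCCtCCCCCCaCCCCC
PCBP3: CCgCCgCCgCCtCCtCaCCCgCCtCgCCCC
PCBP4: CCCCCgCagaCCtgCCtgCCCCCttCtCgC

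The PCBP2 window held 24 C and lies in the 3′ UTR, in exon 14 of 14, at chr12:53480830-53480859 on the plus strand. Of the 11538 genes whose transcript was found, 75 (0.65%) had a window with at least as many C. The PCBP1 window held 22 C and lies in the 5′ UTR of its only exon, at chr2:70087515-70087544 on the plus strand, and 6.14% of genes had as many. The PCBP3 window held 21 C and lies in the 5′ UTR, exon 1 of 16, at chr21:45643774-45643803 on the plus strand. The HNRNPK window held 18 C, the median of all genes, and lies in the coding part of exon 11 of 17, at chr9:83971954-83971983 on the minus strand. The PCBP4 window also held 18 C, at chr3:51958276-51958305 on the minus strand, in a transcript with a retained intron. The longest protein-coding transcript of PCBP4, an alternative chosen after seeing the data, had 19 C in its window.

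Over the whole transcript HNRNPK was the poorest of the family in C. Its transcript had 18.4% C, against 29.8% for PCBP1, 26.5% for PCBP2, 32.7% for PCBP3, 30.7% for PCBP4 and a median of 23.7% over all genes. The motif CCC, counted on the transcript strand with overlaps allowed, occurred 12.6 times per kilobase in HNRNPK and 34.3 to 40.9 times in the other 4. The median over all genes was 17.5. Thus PCBP2 stood out by the density of its best window, but not by its overall C content, in which PCBP1, PCBP3 and PCBP4 were higher.

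The 24-C window is not in every PCBP2 mRNA. Of the 26 listed PCBP2 transcripts found in GENCODE 29, 3 hold it, and these are 2741 to 3077 nt long. The mean PCBP2 transcript length in the tables, weighted by abundance, was 1258 to 1377 nt in the 5 libraries. Another C-rich stretch of PCBP2, with 23 C, lies in the 5′ UTR in exon 1, at chr12:53452151-53452180 on the plus strand, and 5 listed transcripts hold it.
PCBP2 5′ UTR window: CCCgCCCgCCCgCCCtCCgCCCgCCCgCCC
In all, 7 of the 18 protein-coding PCBP2 transcripts had a window of at least 22 C. The tables give 1 value per gene, so the transcripts were not measured apart.

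PCBP2 was the family member that rose in the RIPs. It lies at chr12:53452102-53481162 on the plus strand and has 29 listed transcripts. Its FPKM was 564.26 in the FLAG-CBFB cell input and 5173.64 in the FLAG-CBFB RIP. In parental cells it was 451.56 in the input, 3373.55 in hnRNPK RIP replicate 1 and 2219.80 in replicate 2. All 3 RIPs were above both inputs, as they were for 3.26% of the 11764 genes. The rise over its own input was 9.17-fold with FLAG-CBFB and 7.47-fold and 4.92-fold with hnRNPK, as deposited and before any rescaling, whereas the inputs differed from each other 1.25-fold.

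Few genes shared that pattern. Of the 11764 genes analysed, 442 (3.76%) had a higher FPKM than the own input in all 3 RIPs, and 53 (0.451%) were higher at least 4-fold in all 3 on log2(FPKM + 1). PCBP2 was among the 53. Among nuclear protein-coding genes its rank by FPKM was 142 and 208 in the inputs. That rank was 3 after FLAG precipitation and 1 in each hnRNPK repeat, and by estimated counts PCBP2 ranked 1 in all 3 RIPs. Its share of non-mitochondrial counts in FLAG-CBFB cells was 0.071% before precipitation (95% Wilson interval 0.0705 to 0.0716%) and 1.65% after it (1.64 to 1.65%). In parental cells the share was 0.0601% in the input (0.0595 to 0.0607%), 2.37% in replicate 1 (2.37 to 2.38%) and 1.85% in replicate 2 (1.85 to 1.86%). These intervals cover counting error only, and the repeats differed by more.

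HNRNPK, which encodes the precipitated protein itself, went the other way. The gene lies at chr9:83968083-83980616 on the minus strand and has 14 listed transcripts. Its FPKM was 451.24 in the FLAG-CBFB cell input and 117.73 in the FLAG-CBFB RIP. In parental cells it was 528.88 in the input, 15.10 in hnRNPK RIP replicate 1 and 11.36 in replicate 2. It was 3.83-fold below its own input with FLAG-CBFB and 35.0-fold and 46.6-fold with hnRNPK. Being lower in all 3 RIPs than in both inputs was the common pattern, shown by 90.1% of the 11764 genes. In FPKM as deposited, the size of the fall and not its direction therefore set HNRNPK apart from PCBP1 and PCBP4. In both inputs HNRNPK was near PCBP2 in level, at a PCBP2 to HNRNPK ratio of 1.25 and 0.854.

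PCBP1, a single-exon gene at chr2:70087454-70089203 on the plus strand, fell less. Its FPKM was 149.89 in the FLAG-CBFB cell input and 123.71 in the FLAG-CBFB RIP, then 165.71 in the parental input, 44.85 in hnRNPK RIP replicate 1 and 39.11 in replicate 2. That is 1.21-fold lower with FLAG-CBFB and 3.69-fold and 4.24-fold lower with hnRNPK. PCBP1 was thus closer to its input with FLAG-CBFB than with hnRNPK, as the average gene was. Its share of non-mitochondrial counts instead rose, from 0.0247% to 0.0518% with FLAG-CBFB and from 0.0296% to 0.0457% and 0.046% with hnRNPK.

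PCBP4, at chr3:51957454-51974016 on the minus strand, was the weakest of the 4 analysed members. Its FPKM was 15.7 in the FLAG-CBFB cell input, 7.45 in the FLAG-CBFB RIP, 13.36 in the parental input, 3.24 in replicate 1 and 2.47 in replicate 2. It was below its own input by 2.11-fold with FLAG-CBFB and by 4.12-fold and 5.41-fold with hnRNPK. Like PCBP1 it followed the common pattern, and its log2 ratios on log2(FPKM + 1), -0.98, -1.76 and -2.05, fell short of the mean over all genes, -1.34, -2.61 and -2.68. As a share of non-mitochondrial counts PCBP4 rose, from 0.00299% to 0.00356% with FLAG-CBFB and from 0.00275% to 0.00374% and 0.00341% with hnRNPK.

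PCBP3, at chr21:45643694-45942454 on the plus strand, was hardly detected. Its FPKM was 0.27 and 0.23 in the FLAG-CBFB cell input and RIP, and 0.21, 0.33 and 0.15 in the parental input and the hnRNPK repeats. The estimated counts behind these values were 46, 26, 20, 46 and 22. Its hnRNPK RIP repeats lay on either side of the input, and no direction can be read from its FPKM.

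**Figure D1:**
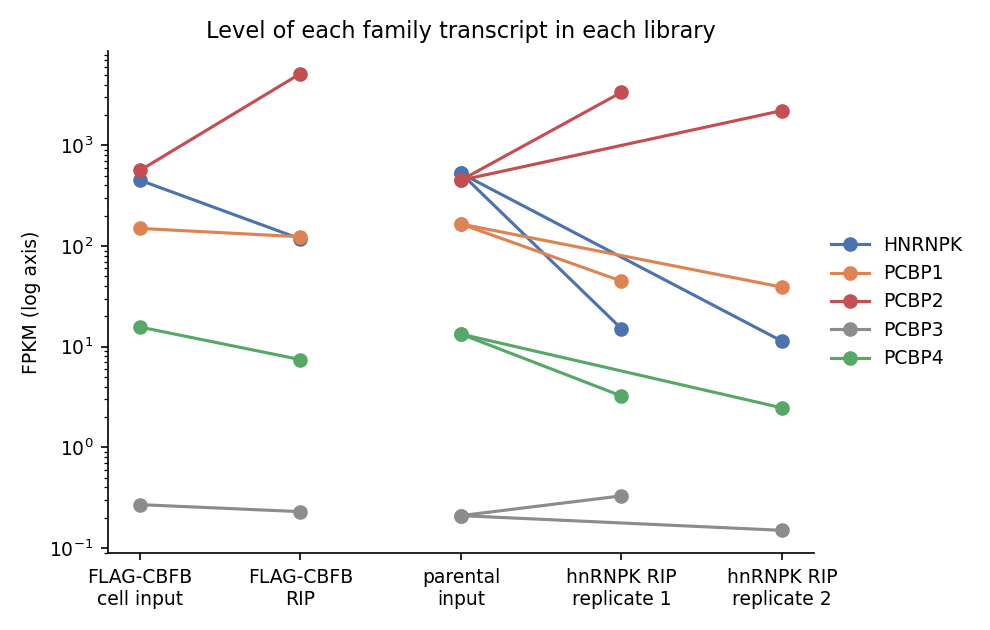
FPKM on a log axis for the 5 family transcripts in each of the 5 libraries, with lines joining each input to its own RIP. PCBP2 goes from 564.26 to 5173.64 with FLAG-CBFB and from 451.56 to 3373.55 and 2219.80 with hnRNPK, while HNRNPK, PCBP1 and PCBP4 are lower in each RIP than in their input.

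The average gene fell in FPKM in the RIPs. The mean log2 ratio of RIP to input over the 11764 genes was -1.34 for FLAG-CBFB and -2.61 and -2.68 for the hnRNPK repeats, and -0.03 between the inputs. Enrichment was therefore taken as log2(FPKM + 1) in the RIP minus that in its own input, less that mean. A value of 0 is then the fall of an average gene, and a gene was called above 2 or below -2, which is 4-fold on this scale. On this scale a gene too weak to fall receives a positive value from the centring alone.

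PCBP2 had an enrichment of 4.53 in the FLAG-CBFB RIP, with a counting error of 0.01 and no replicate. In the hnRNPK RIP it was 5.51 and 4.97, or 5.24 ± 0.38 (SD, n = 2). It ranked 63 of 11764 genes with FLAG-CBFB and 40 by the hnRNPK mean. PCBP2 was the 1 member of the 4 analysed above 2 in the FLAG-CBFB RIP, where 4.37% of all genes were, and the 1 member above 2 in the hnRNPK RIP, where 8.2% of all genes were.

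HNRNPK was the 1 member below -2 with hnRNPK, at -2.43 and -2.74, or -2.59 ± 0.22 (SD, n = 2), where 6.24% of all genes were that low. It ranked 11583 of 11764. The call below -2 was lost with a pseudocount of 0.1, at -1.88, and with log2 CPM scaled by TMM or DESeq2 factors, at -1.76 and -1.50. With FLAG-CBFB it was at -0.59, and no member was below -2 there, as were 0.0935% of all genes. The hnRNPK value of the HNRNPK mRNA was next to that of GAPDH, which encodes a glycolytic enzyme, at -2.69 ± 0.04 (SD, n = 2), and the gap was smaller than the spread of the HNRNPK repeats. RUNX1, which encodes the partner of CBFB, stood at 2.13 with FLAG-CBFB and 3.09 ± 0.28 (SD, n = 2) with hnRNPK. PCBP2 was above RUNX1 in each of the 3 RIPs.

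PCBP1 and PCBP4 lay between 0 and 2 in every RIP. PCBP1 had an enrichment of 1.06 with FLAG-CBFB, rank 1048, and 0.69 ± 0.09 (SD, n = 2) with hnRNPK, rank 3320. PCBP4 had 0.36, rank 2240, and 0.74 ± 0.15 (SD, n = 2), rank 3159. With hnRNPK the difference between PCBP1 and PCBP4 was smaller than the spread of the PCBP4 repeats. Both signs depend on the scaling. Without centring PCBP1 was at -0.27 and -1.96 and PCBP4 at -0.98 and -1.90 in the FLAG-CBFB and hnRNPK RIPs. With FPKM rescaled to totals without mitochondrial genes, also uncentred, PCBP1 was at 1.06 and 0.64 and PCBP4 at 0.25 and 0.36. For PCBP3 the centred values were 1.29 and 2.68 ± 0.10 (SD, n = 2), while its log2 ratios before centring were -0.05 and 0.03. The pseudocount of 1 exceeds its FPKM in every library, so those ratios cannot show whether its level changed. With the rescaled FPKM, uncentred, PCBP3 was at 0.33 and 1.06. The median of the 4 analysed members was 0.71 in each RIP, against -0.19 with FLAG-CBFB and -0.11 with hnRNPK over all genes.

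**Figure D2:**
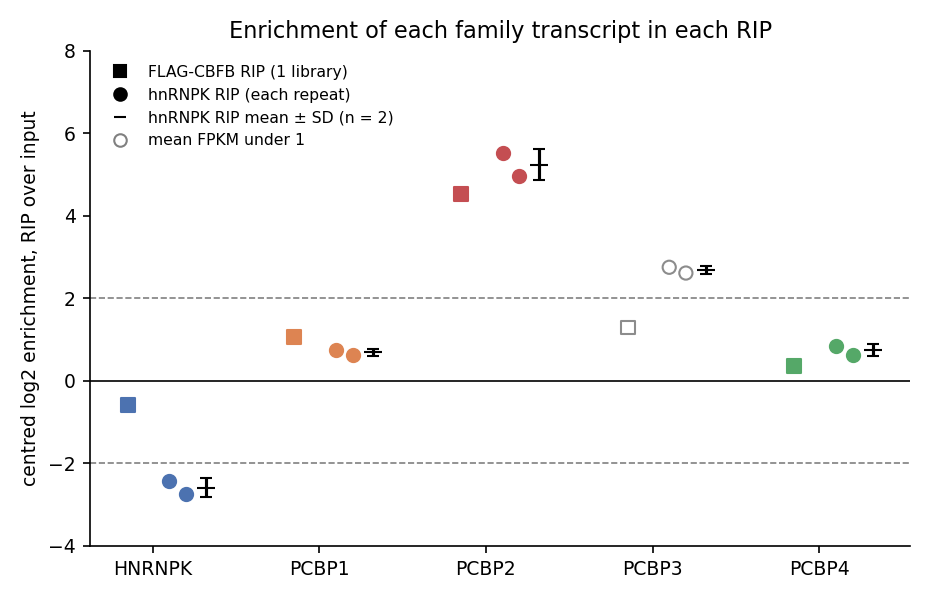
Centred log2 enrichment of each family transcript over its own input, as a square for the single FLAG-CBFB RIP, circles for the hnRNPK repeats and a bar for their mean ± SD (n = 2), with dashed lines at 2 and -2. PCBP2 is above 2 in all 3 RIPs, HNRNPK is below -2 in both hnRNPK repeats at this pseudocount and scaling but not in 3 alternatives (-1.88, -1.76 and -1.50), and PCBP3 is drawn open because its mean FPKM was under 1.

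A comparison within a library needs no scaling between libraries. In the inputs the family was shared among 3 main transcripts. PCBP2 made up 47.8% of the summed FPKM of the 5 genes in the FLAG-CBFB cell input and 38.9% in the parental input, HNRNPK 38.2% and 45.6%, and PCBP1 12.7% and 14.3%. In the RIPs PCBP2 made up almost all of it, at 95.4% with FLAG-CBFB and 98.2% and 97.7% with hnRNPK. HNRNPK dropped to 2.17% with FLAG-CBFB and to 0.439% and 0.50% with hnRNPK. With 2 RIPs against 1 input an exact permutation test cannot go below p = 0.333, so no p is given for shares and ratios.

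The ratio of PCBP2 to PCBP1 set the 2 closest relatives of the family side by side. It was 3.76 in the FLAG-CBFB cell input and 41.8 in the FLAG-CBFB RIP, an 11.1-fold change. In parental cells it was 2.73 in the input and 75.2 and 56.8 in the hnRNPK RIPs, which is 27.6-fold and 20.8-fold. On the log2 scale the change was 3.47 with FLAG-CBFB and 4.58 ± 0.29 (SD, n = 2) with hnRNPK, while the inputs differed by 0.47. The RIPs thus separated PCBP2 from PCBP1 by far more than the inputs differed.

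The ratio of PCBP2 to HNRNPK moved further. It changed from 1.25 to 43.9 with FLAG-CBFB, and from 0.854 to 223 and 195 with hnRNPK, a log2 change of 7.93 ± 0.14 (SD, n = 2). With PCBP2 left out, a choice made after seeing the data, HNRNPK made up 73.1% and 74.7% of the other 4 transcripts in the inputs, 47.3% with FLAG-CBFB and 23.8% and 21.4% with hnRNPK. PCBP1 went from 24.3% and 23.4% in the inputs to 49.7% with FLAG-CBFB and 70.6% and 73.7% with hnRNPK. The ratio of PCBP1 to HNRNPK accordingly rose from 0.332 to 1.05 and from 0.313 to 2.97 and 3.44. The ratio of PCBP4 to PCBP1 changed least, by -0.80 on the log2 scale with FLAG-CBFB and -0.26 ± 0.14 (SD, n = 2) with hnRNPK, where the inputs differed by 0.38.

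**Figure D3:**
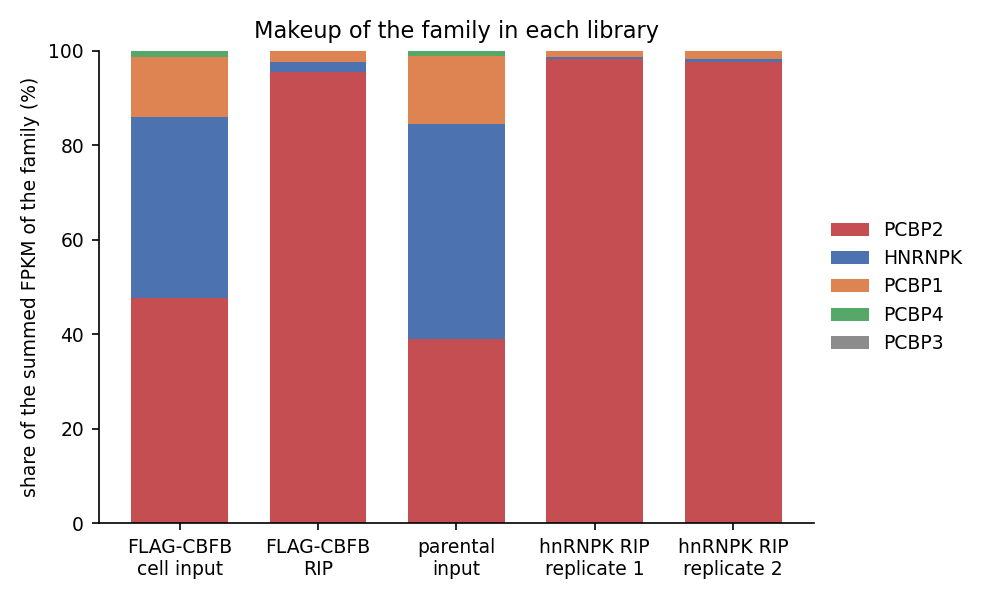
Share of each member in the summed FPKM of the family, in percent, as stacked bars for the 5 libraries. PCBP2 takes 47.8% and 38.9% in the inputs and 95.4%, 98.2% and 97.7% in the RIPs, and HNRNPK takes 38.2% and 45.6% in the inputs.

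The estimated counts of the hnRNPK RIPs (2 libraries) and the parental input (1 library) were also compared, by the quasi-likelihood test of edgeR over 16639 genes with Benjamini-Hochberg adjustment. The lone input was assumed to vary like the RIP repeats. The TMM factors, which rescale the library totals, were 5.754 for the input and 0.4433 and 0.3921 for the hnRNPK repeats. The fold changes are therefore not the plain ratios of the counts printed here. PCBP2 counts were 37245 in the input and 378812 and 225241 in the RIPs, a log2 fold change of 6.30 ± 0.43 (SE) with an edgeR adjusted p of 2.1e-45. HNRNPK counts were 64787 in the input and 2830 and 1971 in the RIPs, a log2 fold change of -1.46 ± 0.32 (SE) with an edgeR adjusted p of 4.2e-05. These 2 members kept their direction and stayed past the threshold under each of the 4 other settings of the count test. In this test 4 of the 5 members were called higher, where 21.9% of all genes were, and 1 was called lower, where 15.8% were.

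For PCBP1 and PCBP4 the call depended on how the libraries were scaled. With TMM factors PCBP1 had a log2 fold change of 1.79 ± 0.36 (SE, edgeR adjusted p = 5.9e-06) and PCBP4 1.54 ± 0.39 (SE, edgeR adjusted p = 0.00038). With library totals without the mitochondrial genes PCBP1 was at 0.63 (edgeR adjusted p = 0.088) and PCBP4 at 0.38 (edgeR adjusted p = 0.36). That scaling moved the median of all genes from -0.12 to -1.28. Of all calls 58.2% were higher with TMM and 20.9% with those totals. PCBP2 was then at 5.14 (edgeR adjusted p = 4.4e-14) and HNRNPK at -2.62 (edgeR adjusted p = 1.7e-09). PCBP3 was called at 4.02 ± 0.84 (SE, edgeR adjusted p = 1.3e-05), on counts of 20 in the input and 46 and 22 in the RIPs.

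**Figure D4:**
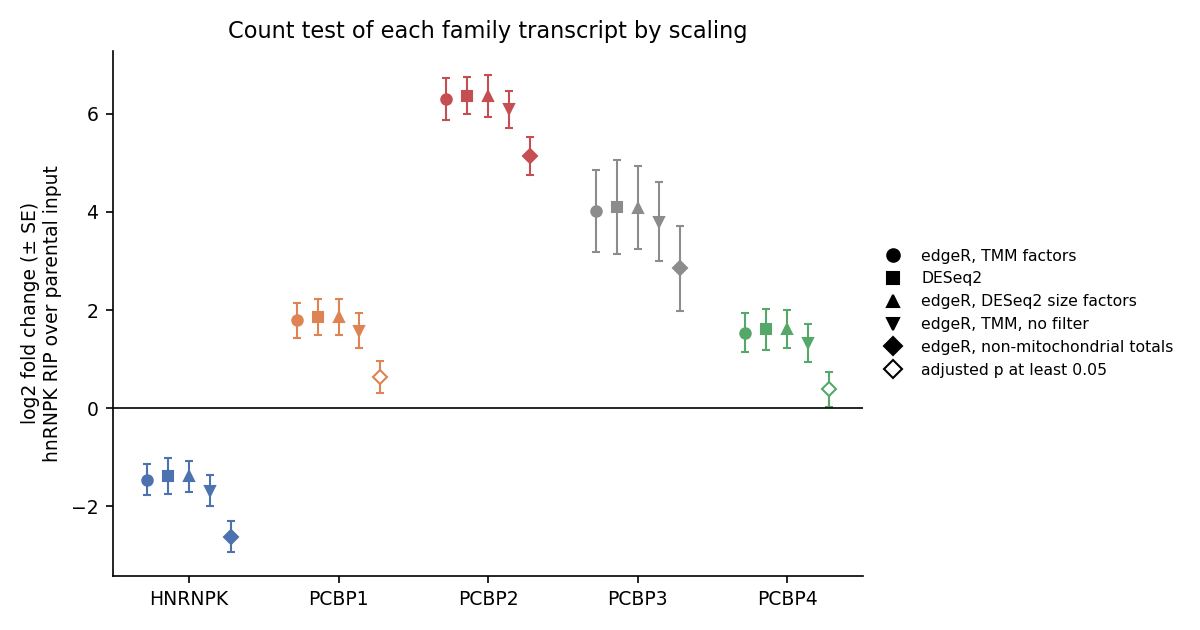
Log2 fold change of each family transcript in the hnRNPK RIP (2 libraries) over the parental input (1 library), with its SE, under edgeR with TMM factors and 4 other settings. Filled symbols have an adjusted p under 0.05, and the open symbols are PCBP1 and PCBP4 with non-mitochondrial library totals, at 0.63 and 0.38.

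Transcripts that could share reads with the family were looked up by symbol and by position. The tables held 11 pseudogenes and antisense genes named after a member, 4 of them at 0 in all 5 libraries and 2 averaging an FPKM of 1 or more. PCBP2P2, a processed pseudogene of PCBP2, was at 3.76 and 34.8 FPKM in the FLAG-CBFB cell input and RIP, and at 3.55, 18.0 and 14.7 in the parental input and the hnRNPK repeats, so it moved with PCBP2. Of its stretches of 50 bases 17.2% were identical to a stretch of PCBP2, and its reads cannot be told apart with certainty from those of the parent gene. PCBP1-AS1, antisense to PCBP1, was at 7.94, 2.54, 8.52, 1.17 and 1.02 FPKM in the same order. No stretch of 50 bases was shared between family members themselves. Adding each member's pseudogenes to it left the enrichment of PCBP2 at 4.53 with FLAG-CBFB and 5.24 with hnRNPK.

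The genes overlapping PCBP2 by position were far lower in level than PCBP2 itself. ENSG00000257379, a noncoding gene on the strand of PCBP2, was at 1.67, 1.52, 0.64, 5.86 and 4.26 FPKM in the order of the libraries above, and MAP3K12, a kinase gene on the opposite strand, at 5.52, 1.80, 5.17, 0.90 and 1.26. PCBP4 shares its strand and part of its locus with ABHD14B, a hydrolase gene, which was at 19.0, 85.0, 32.9, 55.3 and 34.4 FPKM. ABHD14B was thus higher in every RIP than in its input while PCBP4 was lower, and reads in the overlap of these genes are uncertain for PCBP4.

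The other genes of the KH-domain class served as a wider comparison. Of 32 listed KH-domain genes outside the family, 25 reached that mean FPKM of 1. None of the 25 was above 2 or below -2 in the FLAG-CBFB RIP, where 4.37% and 0.0935% of all genes were. The values of the 25 ran from -1.18 to 1.34 there. In the hnRNPK RIP 3 (12%) were above 2 and 2 (8%) below -2, near the 8.2% and 6.24% of all genes. None had a higher FPKM than the own input in all 3 RIPs, as PCBP2 and 3.76% of all genes had. With shares that low, finding none among 25 genes does not set them apart from all genes.

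The highest 4 of the 25 with hnRNPK were IGF2BP2, KHSRP, MEX3A and SF1. IGF2BP2, which encodes an mRNA-stabilising protein, had an enrichment of 3.02 ± 0.16 (SD, n = 2). KHSRP, the AU-rich element decay factor, had 2.72 ± 0.04 and MEX3A, an RNA-binding ubiquitin ligase, 2.56 ± 0.25. MEX3A was weak, at an FPKM of 0.98 in parental cells before precipitation, then 1.17 and 0.61 with the hnRNPK antibody. The log2 ratios before centring were 0.13 and -0.30 for MEX3A, 0.08 and 0.07 for KHSRP and 0.52 and 0.23 for IGF2BP2. All 3 genes thus passed 2 only after centring. The edgeR count test, which scales the libraries by TMM factors, put MEX3A at 3.44 (edgeR adjusted p = 1.3e-08). The splicing factor SF1 had 1.85 ± 0.19 and did not reach 2. The FPKM of IGF2BP2 was 34.3 in parental cells before precipitation, then 49.5 and 40.3 in the hnRNPK repeats, whereas PCBP2 was 7.47-fold and 4.92-fold above the same input.

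The lowest 4 were FUBP1, a regulator of MYC, at -2.21 ± 0.12 (SD, n = 2), the ribosome biogenesis factor KRR1 at -2.02 ± 0.15, KHDRBS1, also called Sam68, at -1.91 ± 0.06, and HDLBP, the KH-repeat protein vigilin, at -1.80 ± 0.16. HNRNPK at -2.59 was lower than all 25 on this scale. It was not the lowest by the edgeR count test, which put FUBP1 at -1.59 and HNRNPK at -1.46. In the edgeR count test 28 of the 32 genes were tested, and 11 (39.3%) were called higher, 6 (21.4%) lower and 11 neither, where 21.9% and 15.8% of all genes were called higher and lower. They had a median log2 fold change of -0.23 against -0.12 over all genes. Across the 25 the median enrichment was -0.46 with FLAG-CBFB and -0.09 with hnRNPK.

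**Figure D5:**
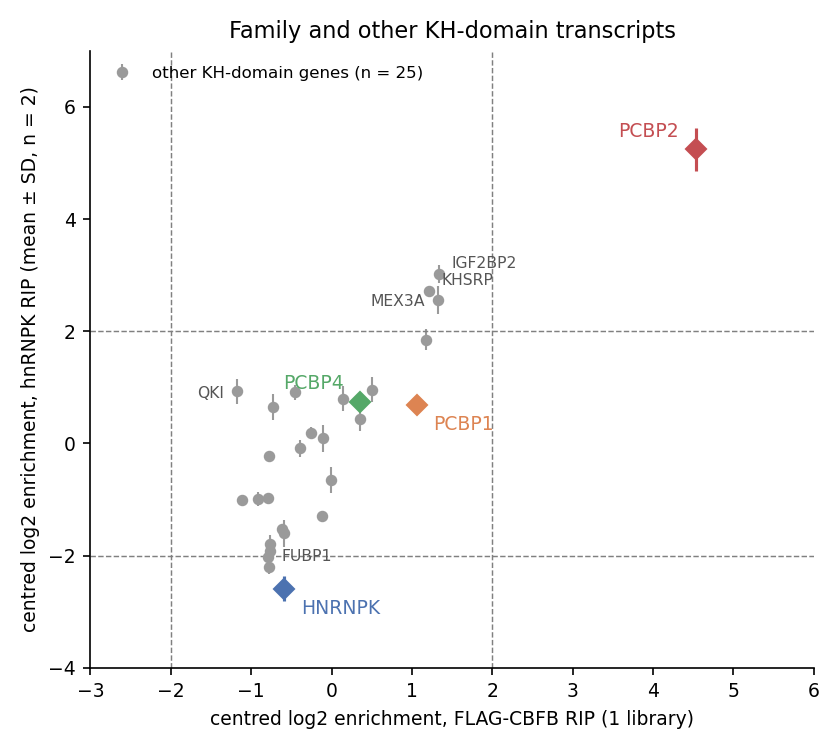
Centred log2 enrichment with FLAG-CBFB (1 library) against that with hnRNPK (mean ± SD, n = 2) for the 4 analysed family members as diamonds and 25 other KH-domain genes as grey points, with dashed lines at 2 and -2. PCBP2, at 4.53 and 5.24, is the only gene plotted that is past 2 on both axes, and HNRNPK, at -2.59, is the lowest on the hnRNPK axis.

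Genes that follow each member most closely over the 5 libraries were found by the root mean square difference of log2(FPKM + 1), each gene set to its own mean, among 10548 protein-coding genes. For PCBP2 the closest were TCF7L1, a transcription factor of the WNT pathway, at 0.127, C17orf97 at 0.166 and CCNK, the cyclin partner of CDK12, at 0.206, where the median gene differed by 2.58. CCNK was at 30.1 and 242 FPKM in the FLAG-CBFB cell input and RIP, and at 25.3, 189 and 162 in the parental input and the hnRNPK repeats. For HNRNPK the closest were TARS1, a threonyl-tRNA synthetase, at 0.0381, XRCC6, the DNA repair protein Ku70, at 0.0722 and HSPA9, the mitochondrial chaperone mortalin, at 0.0804. For PCBP1 they were CSF3, LPAR2 and LYPLA2, and for PCBP4 DENND2B, RNFT1 and GLMP, all within 0.107. The pseudocount of 1 shrinks the changes of weak genes, so a close gene need not share the fold change. RNFT1 went from 4.06 FPKM in the parental input to 0.30 and 0.21 in the hnRNPK repeats. C17orf97 went from 0.51 to 7.21 and 5.34 in the same libraries. The closest gene of PCBP2 differed from it more than the closest gene of each other analysed member did, while the median gene differed by 1.08 from HNRNPK, 0.689 from PCBP1 and 0.589 from PCBP4.

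The density of C was last set against enrichment over all genes. Over the 11538 genes Spearman's rho between the C in the densest window and enrichment was 0.25 with hnRNPK and 0.05 with FLAG-CBFB, a description across genes that share the same libraries. Other measures of C did not keep that order: rho was 0.18 with hnRNPK and 0.23 with FLAG-CBFB for the percentage of C, and 0.21 and 0.24 for CCC per kilobase. For transcript length rho was 0.18 with hnRNPK and -0.35 with FLAG-CBFB. Of the 75 genes with a window of at least 24 C, as in PCBP2, 38.7% were above 2 with hnRNPK and 21.3% with FLAG-CBFB, against 7.82% and 4.12% of the other genes. PCBP2 itself is among the 75, and the limit of 24 is its own value. Windows were read from the longest listed transcript of each gene. Of the 26 PCBP2 transcripts, 3 hold the window of 24 C, all longer than the weighted mean PCBP2 length. Over the whole transcript PCBP1, PCBP2 and PCBP4 had more C than the median gene, and HNRNPK had less. By the densest window PCBP4 and HNRNPK were at the median of 18 C. Whether C density bears on the enrichment of PCBP2 or any other member was not tested.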

How the data were processed

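RIPseq and input libraries of MCF10A cells (5 in all) were analysed, grouped by title. Per the submitters' processing notes, reads were processed with Trimmomatic, STAR and RSEM on hg19 (versions are not given in the sources used here). The authors deposited, per gene, expected counts (RSEM's estimated counts), FPKM and an abundance-weighted transcript length. The TPM values the authors deposited were not used. FPKM was used with a pseudocount of 1, a minimum mean FPKM of 1 and centring. Expected counts were rounded to whole numbers and tested with edgeR 4.0.16 (TMM, filterByExpr, quasi-likelihood), with DESeq2 1.42.0 as an alternative, at an adjusted p of 0.05. The hnRNPK repeats differed by more than sampling noise (chi-square per degree of freedom 87.9), so they were kept as 2 samples. FLAG-CBFB RIP had 1 library per arm and no test. Shares of counts have 95% Wilson intervals. A floor of 3 counts, 2.8e-08 to 4.3e-08 of a library total, was set for this work, and lower counts do occur. Gene names came from a table of gene names and GENCODE 29, which matched 50276 of 56632 identifiers. Sequences were read from GENCODE 29 transcripts by identifier.

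The members and gene lists were chosen with earlier results of these data known. Named genes were the 5 members, transcripts bearing or overlapping them, GAPDH and RUNX1, the 4 highest and 4 lowest other KH-domain genes with hnRNPK, and the 3 genes nearest to each analysed member. QKI, ANKRD17, IGF2BP3 and MEX3D were named after their values were seen, for opposite signs in the RIPs. Alternatives were other pseudocounts, centrings, scalings, filters, inputs, sums with pseudogenes, and each hnRNPK repeat left out. Other transcripts for the sequence features and shares without PCBP2 were chosen after seeing the data.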

Additional observations from a re-analysis of the deposited data

Results flagged for a closer look

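Among the members and the 25 other KH-domain genes, 4 of the latter had a positive enrichment in both hnRNPK repeats and a negative one in the FLAG-CBFB RIP. The share of all analysed genes with such signs was not computed, so this count does not set KH-domain genes apart. QKI, a splicing regulator, differed by 2.11 on the log2 scale, at -1.18 with FLAG-CBFB and 1.09 and 0.77 with hnRNPK. IGF2BP3 differed by 1.38, at -0.73 against 0.82 and 0.48. ANKRD17 differed by 1.37, at -0.46 against 1.01 and 0.82, and MEX3D by 0.45, at -0.26 against 0.12 and 0.27. The differences were not tested, since FLAG-CBFB had 1 RIP, and the signs depend on the centring: all 4 genes had a lower FPKM in every RIP than in its input. No family member had opposite signs.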

How the results depend on the processing

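PCBP2 stayed above 2 in both RIPs under all 10 alternatives that change the scale, genes, input or pseudogenes, from 3.19 to 4.97 with FLAG-CBFB and from 2.60 to 6.25 with hnRNPK. HNRNPK stayed negative under all 10, from -5.23 to -1.50 with hnRNPK and from -1.93 to -0.03 with FLAG-CBFB. With FLAG-CBFB it was nearly at 0 with log2 CPM scaled by TMM or DESeq2 factors, at -0.11 and -0.03. With hnRNPK no member was below -2 (0 in place of 1) in 3 of the alternatives. These were a pseudocount of 0.1 and log2 CPM scaled by TMM or DESeq2 factors, where HNRNPK was at -1.88, -1.76 and -1.50. PCBP1 turned negative with hnRNPK in 2 of the 10, without centring and with centring over all genes (-1.35), and PCBP4 in the same 2 in each RIP. With log2 CPM by TMM or DESeq2 factors, 6 other KH-domain genes were above 2 with hnRNPK and 0 below -2, and with FPKM rescaled without mitochondrial genes 6 were below -2. Without hnRNPK RIP replicate 1 or 2 the number below -2 ran from 1 to 2. Taken from expected counts, the family share of PCBP2 rose by 55.5 percentage points with FLAG-CBFB and 66.4 with hnRNPK, in place of 47.6 and 59.0, and the share of HNRNPK changed by -43.9 and -52.3, in place of -36.0 and -45.1. In the hnRNPK count test DESeq2 called 1361 genes lower in place of 2623, and 70.7% of its calls were higher. With library totals without mitochondrial genes, 2 members were called higher in place of 4, 7 other KH-domain genes higher and 15 lower in place of 11 and 6, and 2166 of all genes higher and 8200 lower in place of 3648 and 2623. Without filtering, over 24642 genes, 49.2% of calls were higher and the same number of members was called. Without replicate 1 or 2 the log2 fold changes of PCBP2 were 6.08 and 6.48 and of HNRNPK -1.55 and -1.38, as values with no test. The cause of these shifts was not tested. No paired analysis was possible because each input and the FLAG-CBFB RIP carry no replicate number to pair with the hnRNPK repeats. Every input and the FLAG-CBFB RIP rest on 1 library, and PCBP3 rests on 20 to 46 counts per library.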
